A study of Mus musculus with 10 samples.

Results

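The genes described here encode the enzymes that cut, spare or tie together the extracellular matrix: matrix metalloproteinases (Mmp), ADAM and ADAMTS proteases, the ADAMTS-like proteins, tissue inhibitors of metalloproteinases (Timp) and lysyl oxidases (Lox and Loxl). Open chromatin near them was profiled by ATAC-seq, where a transposase inserts adapters into accessible DNA, in the mouse pre-osteoblast line MC3T3-E1. There were 4 groups of 2 libraries: cells given TNFa together with BMP4, cells given TNFa, cells given BMP4, and untreated cells. Both factors were used at 10 ng/ml, BMP4 for 3 h. For TNFa the protocol in the labels gives 30 min ahead of BMP4 and the sample labels give 3 h, so its duration is uncertain. All groups were kept in medium with reduced serum before treatment, and no genetic change is given for any of them. The titles of the TNFa libraries carry p65 in addition, for a reason that the labels do not state. The libraries of a group are numbered 1 and 2 and all are of 1 batch. Whether separate cultures gave them is not stated, so any p-value reflects a spread that could be technical alone. Members were taken by gene name alone, as every peak whose nearest gene belongs to these families. They made up 548 of 97788 peak rows, 193 of 35534 distinct regions and 45 of 12771 genes in the 4 peak lists.

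Bone matrix is mostly fibrillar collagen. Procollagen is trimmed outside the cell by N-proteinases of the ADAMTS family, aligned into fibrils and crosslinked by lysyl oxidases, and it is later opened by collagenases, of which the membrane-anchored Mmp14 is one. Timp proteins block the metalloproteinases, Timp3 also blocks several ADAM and ADAMTS enzymes, and Adam17 releases TNFa itself from the cell surface. TNFa signals through NF-kB and AP-1 factors and BMP4 through SMAD factors.

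Libraries held 16.5 to 30.1 M tags in all, and those of both groups given TNFa were the shallower ones, with 16.5 to 21.8 M tags against 26.0 to 30.1 M tags in the other groups. Levels below are scaled tag counts in CPM, relative to the tags of each library in all tested windows, and windows have equal lengths. A single tag was worth 0.64 to 1.72 CPM. The lists held osteoblast genes, with windows for 10 of 11 marker genes (all but Alpl) and promoter windows of Runx2, Col1a1, Col1a2 and Dlx5 in all 4 lists. Chondrocyte markers had windows for 6 of 6 genes, whereas 0 of 4 muscle genes did, and haematopoietic windows belonged to 2 of 5 genes, without Ptprc, Cd68 or Itgam. Endothelial markers had windows for 3 of 4 genes (all but Kdr) and adipocyte markers for 3 of 5. The summed levels of the 10 tested chondrocyte windows were 1100 and 757 CPM with TNFa+BMP4, 635 and 551 CPM with TNFa, 1293 and 996 CPM with BMP4 and 726 and 840 CPM in untreated cells, against 1655 to 2226 CPM for the osteoblast windows. The 4 tested endothelial windows summed to 591 and 490 CPM with TNFa+BMP4, 402 and 339 CPM with TNFa, 533 and 673 CPM with BMP4 and 410 and 512 CPM in untreated cells. The part of this in the results below was not tested. The median difference between the libraries of a group over the member windows was 0.6 log2 units with TNFa+BMP4, 0.68 with TNFa, 1.08 with BMP4 and 0.71 in untreated cells.

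Promoter sequence shows the ground on which the windows sit. RefSeq (build GRCm38.p6, the same as mm10) gave 59 promoters for 54 symbols that fit the names, 24 of them among the 45 genes with windows, each from 250 bases before to 50 after a start. The 4 printed here are the promoters of Timp1, Adamts12 and Loxl4, each among the 4 higher windows of smallest p in a comparison with untreated cells, and of Mmp14, whose intron window is another. Each is the 250 bases before the start, 5′ to 3′ on the gene's strand, with capitals for the bases under the window of the untreated list. They lie at chrX:20869916-20870165 (plus strand, Timp1), chr15:11064523-11064772 (plus, Adamts12), chr19:42612807-42613056 (minus, Loxl4) and chr14:54431348-54431597 (plus, Mmp14).
Timp1: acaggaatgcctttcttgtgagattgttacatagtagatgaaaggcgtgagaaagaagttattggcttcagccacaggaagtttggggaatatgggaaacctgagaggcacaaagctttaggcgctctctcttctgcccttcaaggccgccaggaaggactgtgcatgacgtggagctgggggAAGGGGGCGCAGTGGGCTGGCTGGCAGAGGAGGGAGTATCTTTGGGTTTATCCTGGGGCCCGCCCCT
Adamts12: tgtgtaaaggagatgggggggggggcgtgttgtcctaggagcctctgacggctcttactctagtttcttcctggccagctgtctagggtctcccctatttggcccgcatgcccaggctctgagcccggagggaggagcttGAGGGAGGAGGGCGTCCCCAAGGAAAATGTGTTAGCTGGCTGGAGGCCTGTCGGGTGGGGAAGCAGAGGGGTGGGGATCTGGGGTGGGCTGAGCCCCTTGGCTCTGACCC
Loxl4: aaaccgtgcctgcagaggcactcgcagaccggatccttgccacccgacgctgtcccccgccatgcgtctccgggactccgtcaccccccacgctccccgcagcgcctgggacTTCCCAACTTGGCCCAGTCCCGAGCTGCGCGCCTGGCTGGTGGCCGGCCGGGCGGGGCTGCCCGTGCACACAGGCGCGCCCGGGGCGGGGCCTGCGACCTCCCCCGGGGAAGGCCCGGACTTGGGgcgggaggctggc
Mmp14: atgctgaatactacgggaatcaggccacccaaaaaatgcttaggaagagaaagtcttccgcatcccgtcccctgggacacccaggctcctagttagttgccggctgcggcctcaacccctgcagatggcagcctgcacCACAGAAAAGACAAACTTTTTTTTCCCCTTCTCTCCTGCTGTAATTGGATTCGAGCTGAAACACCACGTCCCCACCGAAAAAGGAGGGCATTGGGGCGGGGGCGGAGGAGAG
Short motifs were searched on both strands of the whole RefSeq promoter, 50 bases past the start included. The letters were TGANTCA for AP-1, TGTGGT for RUNX factors, GGCGCC for BMP SMAD proteins and GGAATG for TEAD factors. For NF-kB 1 narrow form of the consensus was searched, and looser forms were not. In the printed genes, TGTGGT lay on the reverse strand from base 137 of Mmp14 and GGAATG at base 4 of Timp1. GGCGCC lay at base 268 of Loxl4, past the printed part. Of the exact letters searched, each gene thus held 1 match at most, and none overlapped. Adamts12 held none. AP-1 letters were found in 13 of 59 member promoters, against 7.81% of all 32851 promoters. None of these 13 had a window in the lists. They belonged to Adam19, Adam1b, Adam20, Adam25, Adam29, Mmp1a, Mmp1b, Mmp3, Mmp7, Mmp10, Mmp12, Mmp13 and Mmp20. The narrow NF-kB form was in 0 of 59 (1.63% of all). The printed Loxl4 bases depart from that form in only 1 letter across the first capitals. The count of 0 thus does not cover looser NF-kB sites. RUNX letters were in 20.3% (16.8% of all), SMAD letters in 20.3% (11.9% of all) and TEAD letters in 6.78% (14.7% of all). The 11 member promoters that had a window in all 4 lists had a median GC content of 68.0%, against 52.0% in the 45 with none and 52.7% over all promoters.

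The accessible part of the family was uneven. RefSeq lists 89 mouse genes with such names, and 44 of them had no row in the lists used here. Among these were 16 of 23 Mmp genes, including Mmp3, Mmp9 and Mmp13, the collagenase best known from bone, and 22 of 33 Adam genes, many of them known from the testis. All 4 Timp genes, all 5 Adamtsl genes and 4 of 5 lysyl oxidase genes (all but Loxl2) had windows. Adamtsl3 had the most rows, 50 in all, followed by Adamtsl4 with 39, Adamts5 with 37, Adamts12 with 31 and Timp3 with 29. Promoter windows were found for 22 genes. Of the 83 member windows matched across all 4 lists, all of which passed the filter on low counts (a window missing from any list was not tested), 47.0% lay in introns, 28.9% between genes and 19.3% at promoters. Over all 14416 tested windows these shares were 27.1%, 27.7% and 41.0%. A window is named after its nearest gene, which need not be the gene it acts on. The most open member windows lay upstream of Timp2, at −5363, −5849 and −7975 bp from its start, with a mean over the 8 libraries of 258.8, 226.6 and 202.3 CPM. An Adamtsl4 window at −8102 bp had 202.9 CPM and one 39752 bp into Timp3 had 178.1 CPM. All 5 ranked at or above percentile 93.9 of the tested windows.

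No member window passed an adjusted p of 0.05 in any comparison, and neither did any other window (limma, Benjamini-Hochberg over 14416 windows, called share 0.0% in each of the 6 comparisons). At an unadjusted p under 0.05 there was 1 of 83 member windows for TNFa+BMP4 against untreated cells (2.48% of all windows), and 0 for TNFa against untreated (1.05% of all), BMP4 against untreated (0.194%), TNFa+BMP4 against TNFa (0.257%), TNFa+BMP4 against BMP4 (1.6%) and the interaction (0.0%). The interaction asks whether the change with both factors departs from the sum of the single changes on the log2 scale. The smallest adjusted p of a member was 0.897 for TNFa+BMP4 against untreated cells, 0.989 for TNFa+BMP4 against BMP4 and 1 elsewhere. The median log2 fold change of the 83 windows was −0.05 for TNFa+BMP4, −0.02 for TNFa and 0.01 for BMP4, each against untreated cells. Windows whose 2 libraries lay apart from those of the other group were counted as well. With TNFa+BMP4, 17 member windows were higher and 11 lower than in untreated cells (16.8% and 16.5% of all windows). With TNFa there were 11 higher and 8 lower (8.88% and 10.5% of all), and with BMP4 7 and 7 (8.32% and 8.68%). TNFa+BMP4 against TNFa gave 10 higher and 8 lower (8.38% and 8.93%), and against BMP4 14 and 10 (11.7% and 13.5%).

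Few member windows separated the groups in every library, and which ones did so for TNFa depended on the scaling. Counted after the values were seen, with the levels in CPM used throughout, 3 windows were higher in all 4 libraries given TNFa, alone or with BMP4, than in all 4 without it (3.61% of members, 1.82% of all windows). These were the first intron of Mmp14, the promoter of Timp1 and the end of Adamtsl4. Only an intron of Adamts14 was lower in this way (2.62% of all). For BMP4 the promoters of Adamts12 and Lox were higher in all 4 libraries given it (2.41% of members, 0.777% of all), and none was lower (0.853% of all). Scaled by total tags, a choice added after the data were seen, the same windows of Mmp14, Adamts12 and Lox were divided, and those of Timp1, Adamtsl4 and Adamts14 were not. In their place 5 other member windows, of Adam15, Adamts6, Adamts17, Adamtsl3 and Adamtsl4, were lower in all 4 libraries given TNFa (2.44% of all windows).

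Among the metalloproteinases, Mmp14, the membrane-anchored collagenase, had the higher window of smallest p in 3 comparisons. It lay at chr14:54435268-54435392 (mm10), in intron 1 and 3732 bp from the start. It had 47.9 and 41.9 CPM with TNFa+BMP4, 44.6 and 31.1 CPM with TNFa, 25.2 and 15.3 CPM with BMP4, and 24.3 and 16.1 CPM in untreated cells. Both groups given TNFa lay above both groups without it. The log2 fold change was 1.10 (SE 0.51, adjusted p = 0.897) for TNFa+BMP4 against untreated cells, 1.11 (SE 0.51, adjusted p = 0.989) against BMP4 and 0.85 (SE 0.51, adjusted p = 1) for TNFa against untreated cells. The tags behind it were few, 34 and 37 tags with TNFa+BMP4, 26 and 26 tags with TNFa, 22 and 24 tags with BMP4 and 29 and 22 tags in untreated cells, and the TNFa libraries are the shallower ones, a part that was not tested. Scaled by total tags, the 3 values were 0.97, 0.97 and 0.70. Other windows of the gene did not share the division. At the Mmp14 promoter levels were 16.9 and 31.7 CPM with TNFa+BMP4, 20.6 and 20.3 CPM with TNFa, 20.6 and 12.1 CPM with BMP4, and 26.8 and 19.1 CPM in untreated cells. At 1754 bp into the gene, where it was most open, they were 121 and 113 CPM with TNFa+BMP4, 125.3 and 129 CPM with TNFa, 124.7 and 52.8 CPM with BMP4 and 158 and 84.3 CPM in untreated cells. Each treated pair overlapped the range of the untreated pair.

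Mmp28 encodes epilysin, a secreted metalloproteinase. Its intron window at chr11:83458095-83458219 gave the smallest p of the members for BMP4. It had 76.7 and 97.3 CPM with BMP4 and 31.8 and 59.4 CPM in untreated cells, a log2 fold change of 0.96 (SE 0.57, adjusted p = 1). With TNFa+BMP4 it had 60.6 and 44.2 CPM and with TNFa 32.6 and 58.5 CPM, so only the BMP4 pair stood clear of the untreated pair. The promoter of Mmp11, or stromelysin 3, was on the other side. It had 9.87 and 22.7 CPM with TNFa+BMP4, 12 and 45.4 CPM with TNFa, 14.9 and 24.8 CPM with BMP4 and 29.3 and 41.8 CPM in untreated cells, and the log2 fold change for TNFa+BMP4 against untreated cells was −1.11 (SE 0.70, adjusted p = 0.897). At the promoter of Mmp16, a membrane-type metalloproteinase, library 2 was above library 1 in each group, from 53.2 to 90.2 CPM against 12.7 to 20.9 CPM, and the groups overlapped. The gelatinase Mmp2 had 4 rows and none in the TNFa+BMP4 list. Its first-intron window had 18 and 30 tags in the TNFa list. The BMP4 and untreated lists placed theirs at 1176 bp, in place of 1058 bp, with 17 and 73 tags and with 28 and 89 tags.

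**Figure D1:**
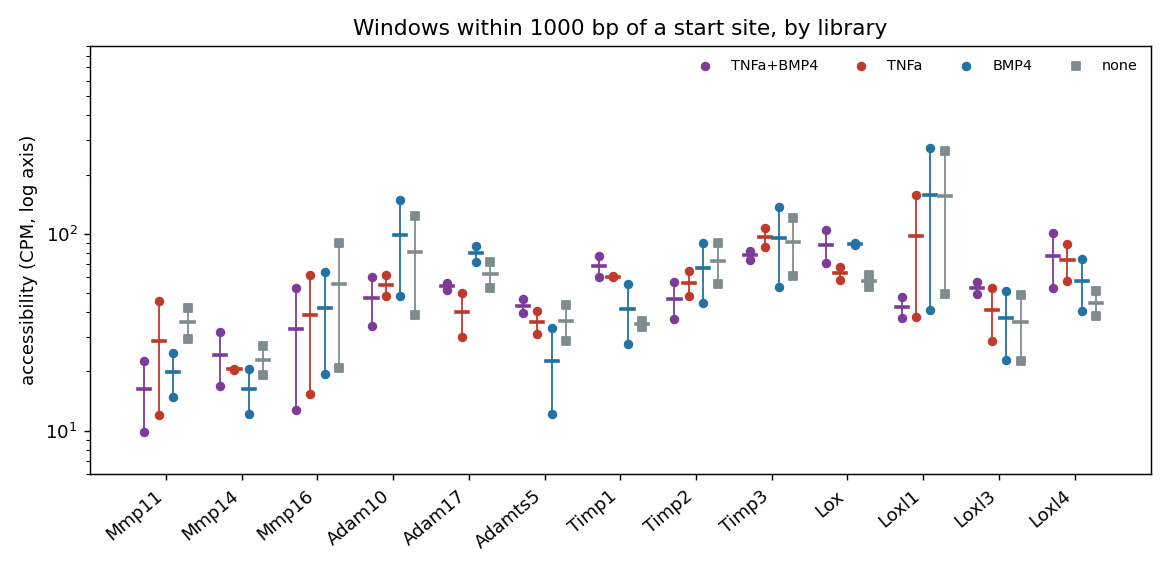
Accessibility in CPM (log axis) of the 13 tested windows within 1000 bp of the start of preselected genes, for TNFa+BMP4, TNFa, BMP4 and untreated (none) libraries from left to right. Points are single libraries, joined by a line for each group, and the short bar is the mean of 2. The Timp1 pairs with TNFa+BMP4 or TNFa lie at 60.1 to 77.0 CPM above the untreated pair, whereas the Loxl1 pairs other than TNFa+BMP4 span several-fold.

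Of the ADAM sheddases, Adam10 and Adam17 had 1 window each, at the promoter and in all 4 lists. Adam17 had 56.4 and 52.1 CPM with TNFa+BMP4, 49.8 and 29.9 CPM with TNFa, 72.1 and 87.1 CPM with BMP4 and 52.8 and 71.9 CPM in untreated cells. The BMP4 pair was the highest and the TNFa pair the lowest, each just clear of the untreated pair. Adam10 overlapped among groups, with 60.6 and 34.0 CPM with TNFa+BMP4, 48.1 and 62.1 CPM with TNFa, 48.1 and 148 CPM with BMP4 and 38.5 and 123 CPM in untreated cells. The 1 member window under an unadjusted p of 0.05 lay at −3602 bp from Adam1b, a gene of the fertilin family, at chr5:121506975-121507099. Levels there were 7.05 and 10.2 CPM with TNFa+BMP4, 13.7 and 13.1 CPM with TNFa, 11.4 and 14.6 CPM with BMP4 and 29.3 and 18.3 CPM in untreated cells. All 3 treated groups were below the untreated pair, and the log2 fold change for TNFa+BMP4 was −1.27 (SE 0.49, limma's unadjusted p = 0.0321, adjusted p = 0.897). The treated libraries had only 5 to 23 tags there, against 35 and 25 in untreated cells. A window of Adam12, which encodes meltrin alpha, at −38679 bp was among the lowest for the interaction, at −0.59 (SE 0.81, adjusted p = 1). Adam15, the 1 other ADAM gene with several start-near windows, had promoter levels of 38.1 and 45.3 CPM with TNFa+BMP4, 46.3 and 51.4 CPM with TNFa, 37.8 and 22.2 CPM with BMP4 and 43.6 and 23.5 CPM in untreated cells.

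Adamts12, a secreted ADAMTS protease that is known to cleave a cartilage matrix protein, had 6 tested windows. At its promoter (chr15:11064663-11064787, the capitals above), levels were 77.5 and 44.2 CPM with TNFa+BMP4, 39.5 and 29.9 CPM with TNFa, 89.3 and 40 CPM with BMP4 and 30.2 and 35.9 CPM in untreated cells. Every library given BMP4 was above every library without it, though BMP4 library 2 (40 CPM) only just cleared TNFa library 1 (39.5 CPM). A single tag was worth 0.64 and 1.72 CPM in these libraries. Per 10 M total tags the closest were TNFa+BMP4 library 2 at 20.7 and untreated library 2 at 16.8 tags. The log2 fold change was 0.83 (SE 0.58, adjusted p = 1) for BMP4 and 0.79 (SE 0.58, adjusted p = 0.897) for TNFa+BMP4 against untreated cells, and 0.74 (SE 0.58, adjusted p = 1) for TNFa+BMP4 against TNFa. A second window 461 bp into the gene gave 0.93 (SE 0.77, adjusted p = 1) for BMP4, which was 0.08 without BMP4 library 1 and 1.77 without BMP4 library 2. The largest fold change of any member, 2.21 (SE 1.34, adjusted p = 0.897) for TNFa+BMP4 against untreated cells, was at 20023 bp in intron 2. It rested on 103 and 44.2 CPM with TNFa+BMP4 against 26.8 and 5.87 CPM in untreated cells, and was 1.25 without untreated library 2 and 3.17 without untreated library 1. With TNFa the window had 42.9 and 8.36 CPM and with BMP4 105 and 3.81 CPM, so single libraries of 1 group differed by more than the groups did. Against TNFa, this window gave 1.69 (SE 1.34) and a neighbour at 19648 bp gave 1.19 (SE 0.81), both with adjusted p = 1. Without TNFa library 2 these were 0.62 and 0.30, and without TNFa library 1 they were 2.76 and 2.07.

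Adamts14 and Adamts2 are procollagen N-proteinases. An Adamts14 window in intron 4 (chr10:61232950-61233074) had 29.6 and 44.2 CPM with TNFa+BMP4, 32.6 and 32.3 CPM with TNFa, 57.2 and 187 CPM with BMP4 and 62.8 and 142 CPM in untreated cells. All 4 libraries given TNFa were below all 4 others in CPM, but not per total tags, where TNFa+BMP4 library 2 had 20.7 and BMP4 library 1 had 19.2 tags per 10 M. The log2 fold change was −1.34 (SE 0.70, adjusted p = 0.897) for TNFa+BMP4 and −1.49 (SE 0.70, adjusted p = 1) for TNFa against untreated cells, and −1.47 (SE 0.70, adjusted p = 0.989) for TNFa+BMP4 against BMP4. The last of these was −2.31 without BMP4 library 1 and −0.61 without BMP4 library 2, the library that held 187 CPM. Adamts2 had its largest interaction at 67654 bp, 0.89 (SE 0.67, adjusted p = 1), with 40.9 and 38.5 CPM with TNFa+BMP4, 22.3 and 29.9 CPM with TNFa, 27.5 and 31.8 CPM with BMP4 and 33.5 and 41.1 CPM in untreated cells. Its promoter window stood in the TNFa and untreated lists only.

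Adamts5 and Adamts4 are the chief aggrecanases, which cleave the cartilage proteoglycan aggrecan. The Adamts5 promoter had 39.5 and 46.4 CPM with TNFa+BMP4, 30.9 and 40.6 CPM with TNFa, 33.2 and 12.1 CPM with BMP4 and 43.6 and 28.6 CPM in untreated cells. Its log2 fold change was 1.01 (SE 0.58, adjusted p = 0.989) for TNFa+BMP4 against BMP4 and −0.75 (SE 0.58, adjusted p = 1) for BMP4 against untreated cells. The interaction was 1.01 (SE 0.83, adjusted p = 1). Without BMP4 library 2, which held 12.1 CPM, these were 0.36, −0.10 and 0.35, and without BMP4 library 1 they were 1.67, −1.41 and 1.68. A window 2539 bp into the gene was on the same side for BMP4, at −0.70 (SE 0.53, adjusted p = 1), and gave −0.62 (SE 0.53) for TNFa+BMP4 against TNFa. Its levels were 18.3 and 32.8 CPM with TNFa+BMP4, 39.5 and 38.2 CPM with TNFa, 11.4 and 21.6 CPM with BMP4 and 31.0 and 23.5 CPM in untreated cells. The other 5 tested windows named after Adamts5 lay between −446822 and −168544 bp. The one at −446822 bp gave 0.89 (SE 0.72) for TNFa against untreated cells and 1.22 (SE 0.72) for TNFa+BMP4 against BMP4, with 8.46 and 34.0 CPM with TNFa+BMP4, 15.4 and 29.9 CPM with TNFa, 5.72 and 6.99 CPM with BMP4 and 16.8 and 6.60 CPM in untreated cells. The first value was 0.31 without untreated library 2 and 1.48 without untreated library 1, and the second was 0.33 without TNFa+BMP4 library 2 and 2.12 without TNFa+BMP4 library 1. The one at −258466 bp gave −1.03 (SE 0.72) for BMP4, and −0.33 without untreated library 1 and −1.74 without untreated library 2.

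Adamts4 was open near its start in the lists of the TNFa groups only. Its window at chr1:171250312-171250461, 245 bp past the start in the 5′ untranslated exon, held 43 and 35 tags with TNFa+BMP4 and 36 and 24 tags with TNFa. No window of the BMP4 or untreated list lay within 500 bp, so no level is known in those groups, and the difference was not tested. Adamts1, a further aggrecan-cleaving protease, had an intron window at 1794 bp with 202 and 97.4 CPM with TNFa+BMP4, 120 and 81.2 CPM with TNFa, 184 and 36.9 CPM with BMP4 and 79.6 and 43.3 CPM in untreated cells. Its promoter window was in the untreated list only. Adamts6 had an intergenic window, 230753 bp from its start, with 54.9 and 41.3 CPM with BMP4 and 29.3 and 27.1 CPM in untreated cells (0.72, SE 0.49, adjusted p = 1). With TNFa+BMP4 it had 31.0 and 22.7 CPM and with TNFa 29.2 and 20.3 CPM, which gave −0.80 (SE 0.49, adjusted p = 0.989) for TNFa+BMP4 against BMP4 and −0.60 (SE 0.69, adjusted p = 1) for the interaction. An intron window of Adamts16 at 95245 bp gave −1.17 (SE 0.77, adjusted p = 1) for TNFa+BMP4 against TNFa, with 16.9 and 32.8 CPM with TNFa+BMP4 and 34.3 and 89.6 CPM with TNFa. It was −0.52 without TNFa library 2 and −1.84 without TNFa library 1.

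**Figure D2:**
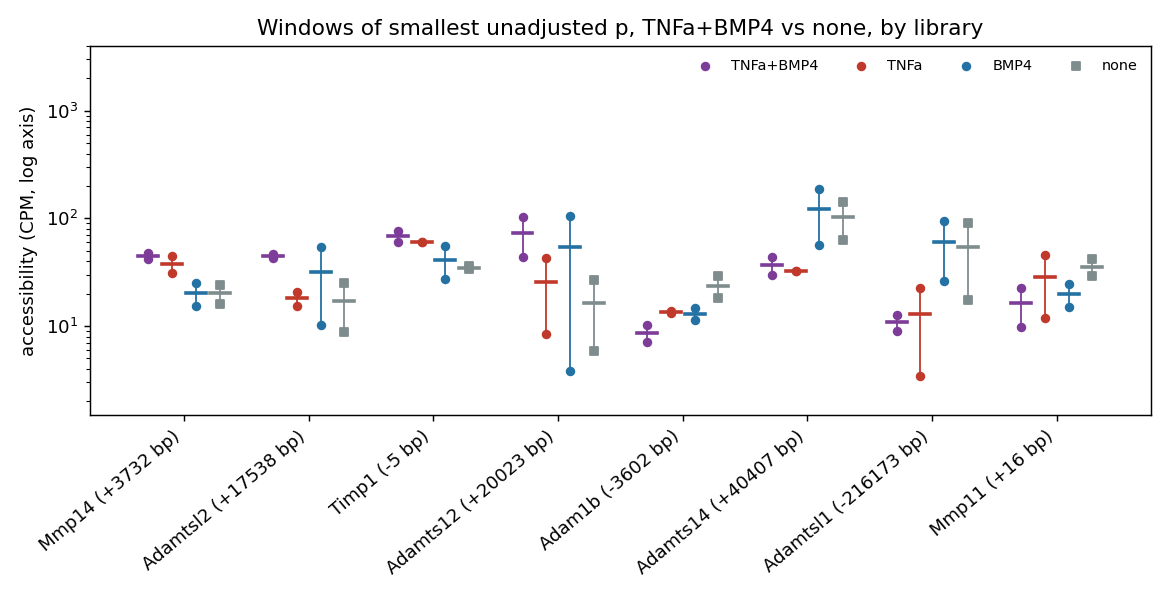
Accessibility in CPM (log axis) of the 4 higher and 4 lower windows of smallest unadjusted p for TNFa+BMP4 against untreated cells, each named by its nearest gene and distance from the start in bp. Points are single libraries of TNFa+BMP4, TNFa, BMP4 and untreated (none) cells from left to right, and short bars are means of 2; in CPM, Mmp14, Timp1 and Adamts14 divide by TNFa in all libraries, of which only Mmp14 does so per total tags, and the Adamts12 pair with BMP4 spans 3.81 to 105 CPM.

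The ADAMTS-like proteins lack the protease domain and bind fibrillin or other matrix components. Of their 17 tested windows, 5 had a log2 fold change above 0 for TNFa against untreated cells, with a median of −0.45 (all windows 0). For TNFa+BMP4 against TNFa, 12 of 17 were above 0, with a median of 0.15. Both comparisons use the TNFa libraries, so these counts are not independent. An Adamtsl1 window at −216173 bp (chr4:85837680-85837804) had 12.7 and 9.06 CPM with TNFa+BMP4, 3.43 and 22.7 CPM with TNFa, 26.3 and 94.1 CPM with BMP4 and 17.6 and 90.9 CPM in untreated cells. Its log2 fold change was −1.74 (SE 0.99, adjusted p = 0.897) for TNFa+BMP4 and −1.88 (SE 0.99, adjusted p = 1) for TNFa against untreated cells, and −2.03 (SE 0.99, adjusted p = 0.989) for TNFa+BMP4 against BMP4. Library 2 of the BMP4 and untreated groups held the high values. Without untreated library 2 the first 2 values were −0.64 and −0.77, and without BMP4 library 2 the last was −1.13. The reverse omissions gave −2.83 without untreated library 1, −2.97 without TNFa library 2 and −2.92 without BMP4 library 1. An Adamtsl3 intron window at 69950 bp had 31.0 and 15.9 CPM with TNFa+BMP4 against 42.3 and 230 CPM with BMP4, a log2 fold change of −2.06 (SE 1.19, adjusted p = 0.989). This was −0.85 without BMP4 library 2 and −3.26 without BMP4 library 1. A further Adamtsl3 window, at −61450 bp, had an interaction of 0.52 (SE 0.76, adjusted p = 1).

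Adamtsl2, which binds fibrillin, had an intron window at 17538 bp (chr2:27096855-27096979) with 46.5 and 43.0 CPM with TNFa+BMP4, 20.6 and 15.5 CPM with TNFa, 53.8 and 10.2 CPM with BMP4 and 25.1 and 8.80 CPM in untreated cells. The TNFa+BMP4 pair lay above the TNFa and the untreated pairs and inside the range of the BMP4 pair. The log2 fold change was 1.45 (SE 0.77, adjusted p = 0.897) against untreated cells and 1.23 (SE 0.77, adjusted p = 1) against TNFa. The first was 0.76 without untreated library 2 and 2.14 without untreated library 1. Adamtsl4, a fibrillin-1 binding protein, had its most open window at −8102 bp, with 257 and 132 CPM with TNFa+BMP4, 127 and 102 CPM with TNFa, 386 and 181 CPM with BMP4 and 246 and 194 CPM in untreated cells. TNFa libraries were the lowest there, at −0.93 (SE 0.56, adjusted p = 1) against untreated cells. The TNFa+BMP4 pair overlapped the untreated pair, so the window did not divide by TNFa in CPM. At its far end, 12284 bp from the start, all 4 libraries given TNFa were above all 4 others in CPM. Levels there were 126 and 147 CPM with TNFa+BMP4, 123.6 and 122 CPM with TNFa, 111 and 72.5 CPM with BMP4 and 119 and 68.2 CPM in untreated cells (per total tags these overlapped). The promoter of Adamtsl4 overlapped among all groups, at 88.4 to 221 CPM.

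Among the inhibitors, Timp1, the secreted one that is inducible in many cells, had its highest promoter levels in CPM with TNFa. The window at chrX:20870099-20870223 had 60.6 and 77.0 CPM with TNFa+BMP4, 60.1 and 60.9 CPM with TNFa, 27.5 and 55.3 CPM with BMP4 and 36.0 and 33.7 CPM in untreated cells. All 4 libraries given TNFa were above all 4 others in CPM, but not per total tags, where TNFa+BMP4 library 1 had 19.8 and BMP4 library 2 had 31.2 tags per 10 M. The log2 fold change was 0.93 (SE 0.53, adjusted p = 0.897) for TNFa+BMP4 and 0.76 (SE 0.53, adjusted p = 1) for TNFa against untreated cells, and 0.78 (SE 0.53, adjusted p = 0.989) for TNFa+BMP4 against BMP4. Behind these levels were 43 and 68 tags with TNFa+BMP4, 35 and 51 tags with TNFa, 24 and 87 tags with BMP4 and 43 and 46 tags in untreated cells. A second Timp1 window, 3043 bp into the gene, had 29.6 and 36.2 CPM with TNFa+BMP4, 36.0 and 65.7 CPM with TNFa, 14.9 and 86.5 CPM with BMP4 and 38.5 and 78.5 CPM in untreated cells. There the TNFa+BMP4 pair was below the untreated pair, and the others overlapped it. Timp2 takes part with Mmp14 in the activation of pro-Mmp2. Its promoter had 36.7 and 56.6 CPM with TNFa+BMP4, 48.1 and 64.5 CPM with TNFa, 44.6 and 89.6 CPM with BMP4 and 55.3 and 90.2 CPM in untreated cells. An intron window at 6363 bp gave −0.55 (SE 0.50, adjusted p = 1) for TNFa+BMP4 against TNFa, with 28.2 and 44.2 CPM with TNFa+BMP4 and 58.4 and 47.8 CPM with TNFa. The upstream window at −7975 bp lay between 156 and 230 CPM in all 8 libraries. Timp3, near its start, had 81.8 and 73.6 CPM with TNFa+BMP4, 85.8 and 108 CPM with TNFa, 53.8 and 137 CPM with BMP4 and 61.2 and 120 CPM in untreated cells. Timp4 had 1 tested window, at −32145 bp, with 9.16 to 28.6 CPM.

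The lysyl oxidases oxidise lysines of collagen and elastin so that they crosslink, and 4 of them had promoter windows in all lists. Lox itself had 104 and 71.3 CPM with TNFa+BMP4, 58.4 and 68.1 CPM with TNFa, 89.3 and 87.7 CPM with BMP4 and 53.6 and 61.6 CPM in untreated cells. Each library given BMP4 was above each library without it, though TNFa+BMP4 library 2 (71.3 CPM) only just cleared TNFa library 2 (68.1 CPM). Per 10 M total tags the closest were BMP4 library 1 at 29.9 and TNFa library 2 at 28.9 tags. The 3 tested windows of Lox did not move together. Their log2 fold changes against untreated cells ran from −0.32 to 0.61 for BMP4 and from −0.74 to 0.57 for TNFa+BMP4. Loxl4 had 102 and 53.2 CPM with TNFa+BMP4, 89.2 and 57.3 CPM with TNFa, 74.4 and 40.7 CPM with BMP4 and 51.1 and 38.1 CPM in untreated cells. Both TNFa pairs were clear of the untreated pair, with a log2 fold change of 0.67 (SE 0.59, adjusted p = 1) for TNFa against untreated cells. Loxl3 had 49.3 and 56.6 CPM with TNFa+BMP4, 53.2 and 28.7 CPM with TNFa, 51.5 and 22.9 CPM with BMP4 and 48.6 and 22.7 CPM in untreated cells. Its TNFa+BMP4 pair was just above the untreated pair and overlapped the others. Loxl1 showed how far libraries of 1 group could lie apart. Its promoter had 47.9 and 37.4 CPM with TNFa+BMP4, 37.8 and 158 CPM with TNFa, 41.2 and 273 CPM with BMP4 and 49.4 and 263 CPM in untreated cells. A Loxl1 window 29594 bp from the start had an interaction of −0.54 (SE 0.79, adjusted p = 1).

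**Figure D3:**
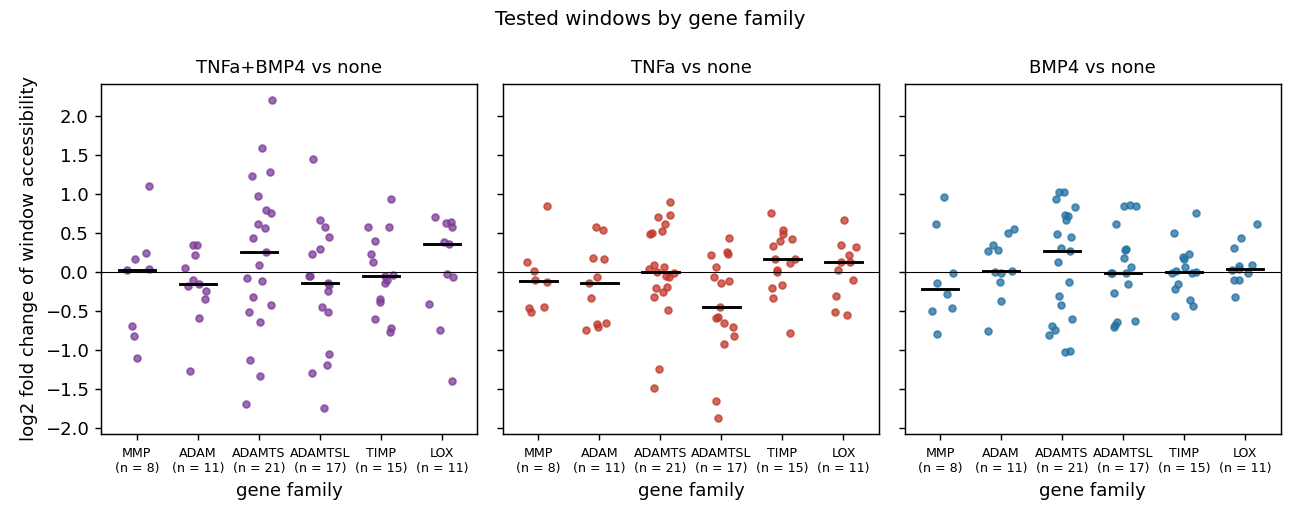
Log2 fold change of window accessibility for the 83 tested windows by gene family, for TNFa+BMP4, TNFa and BMP4 against untreated cells (none). Each point is a window and the bar is the median of the family. No point passed an adjusted p of 0.05, and medians lay between −0.45 (ADAMTS-like, TNFa) and 0.36 (lysyl oxidases, TNFa+BMP4).

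By family, 11 of 15 Timp windows were above 0 for TNFa against untreated cells (median 0.16), and 4 of 15 for TNFa+BMP4 against TNFa (median −0.14). Over all windows 51.3% were above 0 in the second comparison. Both comparisons use the TNFa libraries, so the Timp counts are not independent of each other. Of these windows 6 were of Timp2, 6 of Timp3 and 2 of Timp1, so the same genes recur within each count. The Mmp windows had 3 of 8, 2 of 8 and 5 of 8 above 0 for TNFa, BMP4 and TNFa+BMP4 against untreated cells. The ADAM windows had 4, 7 and 4 of 11, the ADAMTS windows 11, 12 and 12 of 21, and the lysyl oxidase windows 7, 7 and 6 of 11. Scaling by total tags in place of the tags in windows shifted the median of all windows by −0.15 for TNFa and −0.14 for TNFa+BMP4 against untreated cells. With it, 8 of 15 Timp windows (median 0.01) and 4 of 17 ADAMTS-like windows (median −0.59) were above 0 for TNFa, the lysyl oxidase median for TNFa was −0.02 in place of 0.13, and 3 of 8 Mmp windows in place of 5 were above 0 for TNFa+BMP4 (median −0.10 in place of 0.03).

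The peak lists differ in which windows they hold, and a list was called on the pooled libraries of its group, so it has no replicate. All 4 lists shared 86 of 193 member regions (44.6%, against 42.5% of all regions). Both lists of the TNFa groups alone held 8 (4.1% against 4.2% of all), and both lists without TNFa alone held 15 (7.8% against 7.4%). Both BMP4 lists alone held 4 (2.1% against 2.6%), and both lists without BMP4 alone held 10 (5.2% against 2.8%). The TNFa+BMP4 list alone held 12 (6.2% against 6.3%), the TNFa list 3 (1.6% against 4.3%), the BMP4 list 10 (5.2% against 5.8%) and the untreated list 14 (7.3% against 7.9%). Some of these lay within 500 bp of a window of another list. Upstream of Adam19, a sheddase gene, both TNFa lists had a window at −28349 bp with 51 and 40 tags with TNFa+BMP4 and 22 and 41 tags with TNFa. The BMP4 and untreated lists had theirs at −28446 bp, with 43 and 217 tags and with 67 and 187 tags. The Adamtsl4 promoter was likewise split into a window at −391 bp in both BMP4 lists and one at −298 bp in the other lists. Of the 8 regions in both TNFa lists alone, 5 had no such neighbour, and of the 15 in both lists without TNFa, 10 had none. Relative to total tags, the highest of the 5 were that of Adamts4 and an Adamtsl4 window at −1826 bp (40 and 17 tags with TNFa+BMP4, 41 and 15 tags with TNFa). The highest of the 10, an Adam11 intron window at 12718 bp, had 29 and 105 tags with BMP4 and 29 and 94 tags in untreated cells. Among the most tagged regions of a single list, those with no such neighbour were Mmp28 at 5630 bp (24 and 90 tags) and Loxl4 at −26064 bp (13 and 86 tags) for BMP4, Adamts10 at its promoter (11 and 21 tags) for TNFa, and Loxl1 at 4550 bp (19 and 60 tags) for untreated cells.

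**Figure D4:**
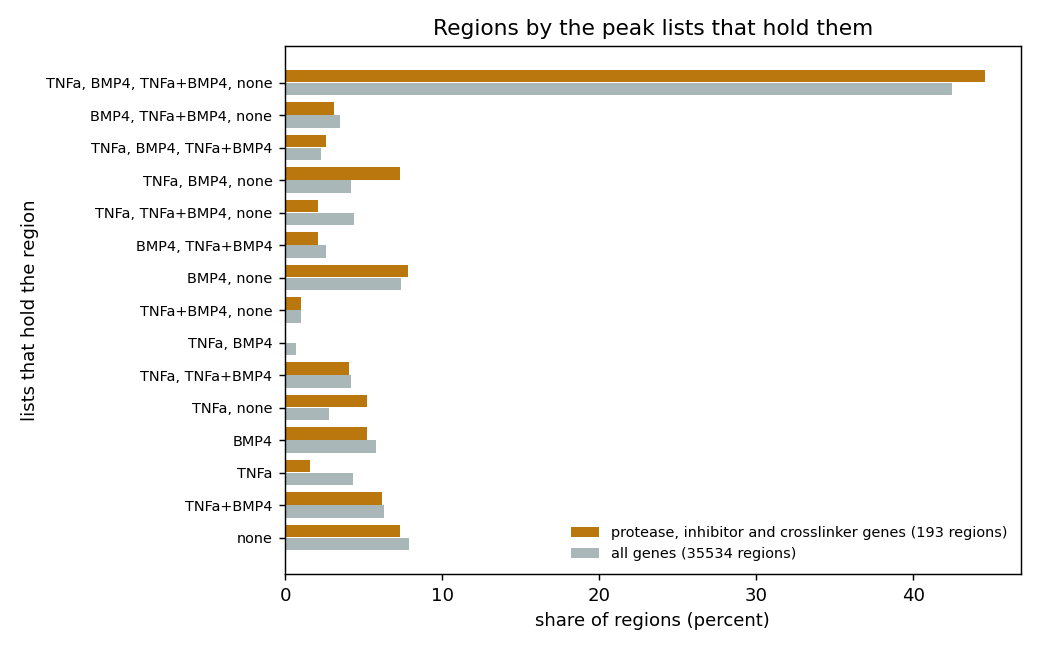
Share of regions, in percent, by the combination of peak lists that hold them, for the 193 regions of the protease, inhibitor and crosslinker genes and for all 35534 regions. The shares are 44.6% and 42.5% for all 4 lists, and among the combinations that depart most are the TNFa list alone (1.6% and 4.3%) and the 3 lists other than TNFa+BMP4 (7.3% and 4.2%).

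Genes that work with these families were described from a list of 58: the plasminogen system, other matrix proteases, collagen and other substrates, and collagen-processing enzymes. They had 110 tested windows, of which none passed an adjusted p of 0.05 in any of the 6 comparisons (limma). At an unadjusted p under 0.05 there was 1 for TNFa+BMP4 against untreated cells, a higher one (2.48% of all windows). There were 2 for TNFa+BMP4 against BMP4, both lower (1.6% of all), and 0 in the others. For TNFa against untreated cells 42 of 110 had a log2 fold change above 0 (median −0.11). For BMP4 there were 60 (median 0.03) and for TNFa+BMP4 49 (median −0.12), each against untreated cells. Over all windows these medians were 0, 0.009 and −0.006. Of the 2 lower windows for TNFa+BMP4 against BMP4, 1 was a distal window named after Serpine2, a serine protease inhibitor. It gave −1.84 (SE 0.62, adjusted p = 0.989).

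Library number moved with many of these values. In 23 of 83 member windows library 1 was above library 2 in CPM in all 4 groups (27.7%, against 23.6% of all windows), as at Adamts12 (20023 bp), Mmp14 (3732 bp) and the Loxl4 promoter. In 19 the order was the reverse in all 4 groups (22.9% against 22.5%), as at the promoters of Mmp16 and Mmp11. The order depends on the scaling. Per 10 M total tags this Mmp14 window had 15.6 and 19.6 tags with TNFa+BMP4 and 8.4 and 8.6 tags with BMP4, so library 2 was the higher one there. Of the 23 windows 1 was a promoter, and of the 19 there were 3, while promoters made up 35.3% and 35.6% of all windows with these patterns. Whether the numbers mark a shared culture or day is not stated, and the part of this in the group differences was not tested.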

How the data were processed

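Peak lists of 4 groups of 2 ATAC-seq libraries were analysed, in mm10 coordinates. The submitters' processing notes name HOMER 4.11, deepTools 3.5.1, Picard 2.25.1, Bowtie2 2.5.1 and Trimmomatic 0.39; the sources used here do not state whether reads were shifted for the transposase. Per the file headers, the authors ran HOMER's peak finding on the 2 libraries of a group together against 2 background libraries. Deposited columns give a peak score, a log2 fold change over background with its p-value, and log2 values per library that the headers call tag counts. These log2 values are the authors' regularised logs (rlog), fitted per list, and cannot be compared between lists.

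Tag counts were recovered by solving the rlog equation with 4 constants per list. Of the values, 99.32% to 100.0% came within 0.1 of a whole number, against 11.9% to 13.2% with the constants moved by 5%. Recovery was also tested on simulated data. Windows sharing 63 bp or more were matched across the lists. Of 14471 such windows, 14416 had 10 tags or more in 2 libraries and 15 or more in all, and were tested. Log2 counts with a pseudocount of 2, after TMM scaling, were fitted by limma 3.58.1 (R 4.3.3) with a mean-variance trend over all 8 libraries, with group as the 1 term. Tests were two-sided, with Benjamini-Hochberg adjustment over all windows. Fold changes are on the log2(count + 2) scale, which understates those of low windows.

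The windows named were, for each comparison, the 4 higher and 4 lower ones of smallest p, those within 1000 bp of the start of listed genes, the 5 most open, and the 3 most tagged regions of each list pattern. Windows dividing all libraries, and others of Adam15, Adamts1, Adamtsl4, Mmp14, Timp1 and Timp4, were added after their values were seen. Members, gene lists and motifs were chosen with earlier results of these data known. Alternatives covered scaling, filters, pseudocount, matching, weights, replicate block, distance and each library left out. Tag numbers carry counting error beside the spread between libraries. A result of 1 neighbouring gene is not reported here.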

Additional observations from a re-analysis of the deposited data

How the results depend on the processing

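No window, member or other, passed an adjusted p of 0.05 in any of the 6 comparisons under any of the 19 alternatives run. The smallest adjusted p of a member over the alternatives was 0.112 for TNFa+BMP4 against untreated cells, 0.704 for TNFa, 0.638 for BMP4, 0.992 for TNFa+BMP4 against TNFa, 0.391 against BMP4 and 1 for the interaction. The median log2 fold change of the member windows ranged from −0.55 to 0.13, −0.24 to 0.05, −0.08 to 0.03, −0.17 to 0.15, −0.19 to 0.10 and −0.05 to 0.13 in that order, and −0.55 came from windows with identical coordinates alone, of which 15 were members. All 828 recomputed fold changes of the named windows kept their sign, but these windows were chosen for their small p in the same data. The lowest was 0.07 of its main value for the interaction and 0.09 for BMP4 against untreated cells. In the other comparisons it was 0.25 to 0.37. The replicate number as a block made no call either. It raised the windows under an unadjusted p of 0.05 to 2552, against 357 without it, for TNFa+BMP4 against untreated cells (members 15 against 1), and to 862 against 151 for TNFa (members 5 against 0). The differences between libraries 2 and 1 of a pair of groups correlated across all tested windows at 0.55 to 0.76, except for TNFa+BMP4 with untreated cells, at 0.11. The main fit has no term for this. The labels do not state that equal numbers mark pairs, so the pairing is read from the data alone. Joining windows within 500 bp lowered the counts of some list patterns, over all regions as well. Member regions in both TNFa lists only numbered 4 in place of 8 (2.7% of members, 2.9% of all regions), and in both BMP4 lists only 2 in place of 4 (1.4% and 1.6%). The TNFa+BMP4 list alone held 3 in place of 12 (2.0% and 3.7%), the TNFa list 1 in place of 3 (0.7% and 2.2%) and the BMP4 list 6 in place of 10 (4.1% and 3.9%). With lists brought to equal length by peak score, member regions in both lists without BMP4 only numbered 6 in place of 10 (3.2% and 2.3%). Those in the TNFa list only numbered 9 in place of 3 (4.8% and 6.0%). The cause was not tested. The counts for single lists, and the scaling by total tags of windows dividing all libraries (1 in place of 3 higher and 5 in place of 1 lower with TNFa), were added after the data were seen. Leaving out each library in turn gave 0 called windows throughout (range 0 to 0), and the fold changes it moved by over 1.5 times stand beside their windows above. Depth limits the low windows: 1 tag was worth 0.64 to 1.72 CPM.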
